A study of Mus musculus with 18 samples.

Results

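The exchange of serum from Rcm to Scm was examined at 24 h, as the comparison of R-Scm 24 h with Rcm. It comprised 6 of the 18 RNA-seq libraries of the series, taken by the group in their titles, with 3 libraries on each side. The cells were wild-type (WT) MEFs, a line of mouse embryonic fibroblasts, so that the libraries of a group came from the same line. Rcm is complete medium with R-FBS, a fetal bovine serum chosen because MEFs grown in it resisted ferroptosis, and Scm is complete medium with S-FBS, a serum that left them sensitive. MEFs of the Rcm group were kept in Rcm, and MEFs of the R-Scm 24 h group were grown in Rcm and then held in Scm for 24 h. Both R-Scm 12 h and Scm (MEFs kept in Scm), with 3 libraries each, were set beside them as references, and the remaining 6 libraries, from the opposite exchange, entered only the estimate of the spread. The titles of the Rcm and Scm libraries give 0 h, and those of the exchanged libraries 12 h or 24 h. No library of MEFs given fresh Rcm, or held in Rcm for a further 24 h, was analysed here. The change of serum, the renewal of medium and the added hours in culture therefore cannot be told apart. The sample labels do not say whether the 3 libraries of a group came from separate cultures, and p values therefore measure only the spread between these libraries.

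Serum supplies cultured fibroblasts with cholesterol, fatty acids, selenium and growth factors, and the cells adjust their transcription to the supply. When sterols are scarce, the SREBP transcription factors leave the endoplasmic reticulum and switch on the genes of the mevalonate and cholesterol pathway, of lipoprotein uptake and of fatty acid synthesis. BMP and TGF-β ligands of serum act through SMAD proteins, whose best known targets in fibroblasts are the Id genes, and interferons act through STAT2 and IRF9 on the interferon-stimulated genes. Ferroptosis, the iron-dependent death by lipid peroxidation, is held back by the selenoprotein GPX4 and by the cystine carrier SLC7A11.

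The 6 libraries held 15037323 to 20313715 counts of reads on genes. A gene's level is given as CPM, read counts relative to the TMM-scaled library size, and a change as the log2 fold change with its standard error (SE). Genes were called DEGs where the log2 fold change exceeded 0.58 in either direction and the adjusted p was below 0.05 in edgeR's quasi-likelihood test with Benjamini-Hochberg adjustment over 15381 genes. The 3 libraries of R-Scm 24 h were not alike. Over all genes tested, replicate 1 differed from replicates 2 and 3 by a root mean square of 0.62 and 0.63 in log2 CPM, and from the Rcm libraries by 0.52 to 0.54. Replicates 2 and 3 differed from each other by 0.55. R-Scm 24 h replicate 3 lay within 0.49 to 0.51 of the Scm libraries and also within 0.51 of Rcm replicate 3. It lay 0.64 and 0.65 from Rcm replicates 1 and 2. The chi-square per degree of freedom between the counts of a pair of libraries was less clear. It was 33.1 and 43.1 for R-Scm 24 h replicate 1 against replicates 2 and 3, and 30.6 between those. Within Rcm it was 10.6 between replicates 1 and 2, and 36.5 and 35.2 for replicate 3 against them. Values are therefore given per library, in the order of replicates 1, 2 and 3, and counts of DEGs with and without replicate 1. Fibroblast markers summed to 10800 to 11200 CPM in Rcm and to 11800, 9380 and 8690 CPM in R-Scm 24 h, and 11 of the 12 were tested, Lum being at 3 counts or fewer. This level was lower in replicates 2 and 3 than in the others, as in Scm (9030 to 9170 CPM), and its part in the results was not tested. The 8 markers of macrophages and leukocytes summed to at most 0.863 CPM in these libraries and the 6 of skeletal muscle to at most 0.266 CPM. Of the 6 neural markers, Tubb3 and Map2 were tested, and Sox10, Olig2 and Rbfox3 had 0 counts. Endothelial, epithelial and adipocyte markers summed to at most 1.48, 0.964 and 2.46 CPM, and of these 19 markers only Kdr, Cdh5, Krt8 and Fabp4 passed the filter on low counts.

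At 24 h after the change to Scm, 58 DEGs were observed against Rcm. Of them, 28 were higher in R-Scm 24 h, which is 0.182% of the genes tested, and 30 were lower, which is 0.195%. The log2 fold changes ran from 0.58 to 2.01 for the higher DEGs and from -2.29 to -0.59 for the lower ones. In each of the 58, the 3 libraries of R-Scm 24 h lay outside the range of the 3 Rcm libraries, as they did for 1725 genes in all, 11.2% of those tested. Relative to the Rcm mean, the median of the higher DEGs stood at 0.81, 0.94 and 1.09 in the R-Scm 24 h libraries in log2 CPM, and that of the lower DEGs at -0.69, -1.05 and -1.05. These medians describe genes called with replicate 1 in the fit, so that its direction in them was set by the choice. In each of the 6 fits that left out 1 library, the call was kept by 7 of the 28 higher genes (Cckar, Tafa5, Dynap, Id4, Atoh8, Npnt and Sytl2) and by 3 of the 30 lower genes (Nsdhl, Gsta4 and Tenm4). Of the 58 DEGs, 57 remained without R-Scm 24 h replicate 1, 22 without Rcm replicate 1, 22 without Rcm replicate 2 and 35 without Rcm replicate 3. Leaving out R-Scm 24 h replicate 2 kept 18 of them, and leaving out R-Scm 24 h replicate 3 kept 14. By edgeR, 1582 of the 15381 genes had an unadjusted p under 0.05 against Rcm. Without R-Scm 24 h replicate 1 it was 2726 of the 15704 then tested. DESeq2 on the 18 libraries called 161 DEGs among the 15381 genes. Counts of list members against Rcm are to be read beside these numbers.

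**Figure D1:**
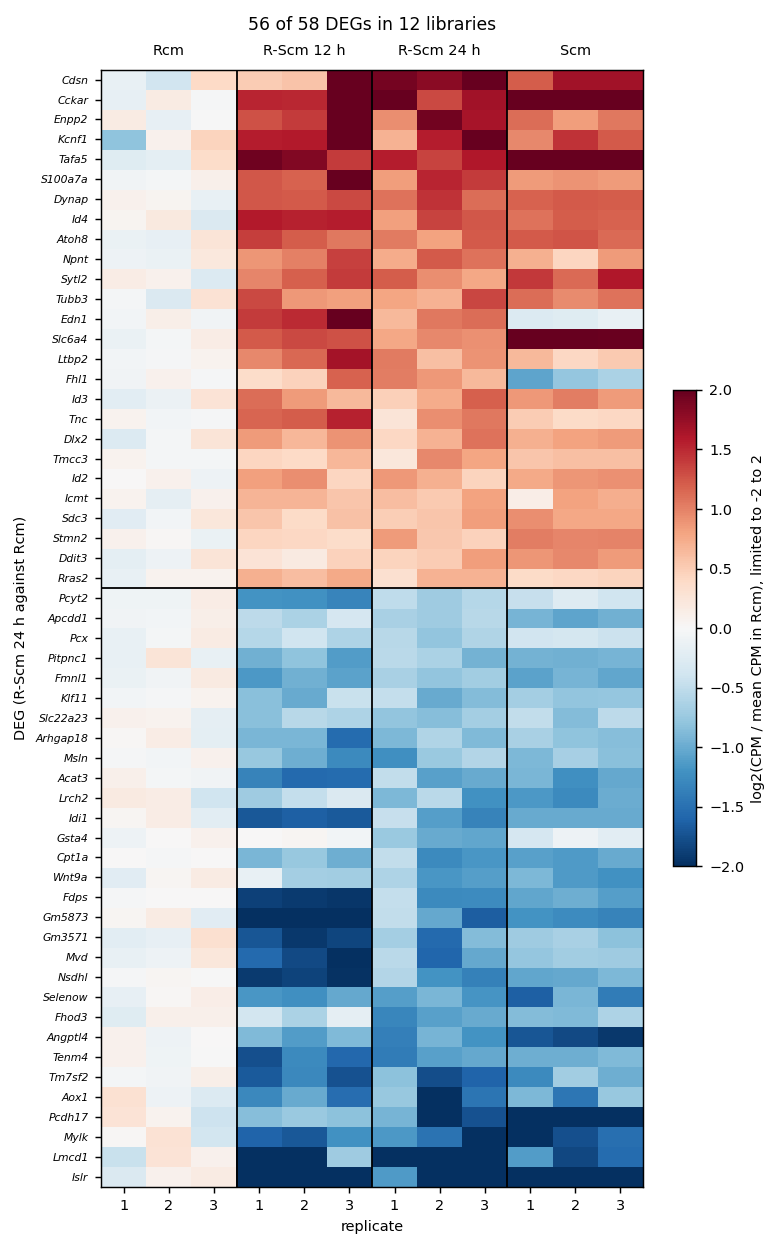
Levels of 56 of the 58 DEGs in the 12 libraries of Rcm, R-Scm 24 h, Scm and R-Scm 12 h. Each cell is the log2 ratio of the CPM in that library to the mean CPM in Rcm, with colours limited to 2 in either direction, and the horizontal line parts 26 higher from 30 lower DEGs. R-Scm 24 h replicate 1 is paler than replicates 2 and 3 in many rows, such as Fdps and Tnc, and as dark in others, such as Cckar and Tenm4.

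Of 17 tested genes of the BMP and TGF-β response, Id2, Id3, Id4 and Ltbp2 rose at 24 h and none fell. By DESeq2 7 of them were DEGs, and without replicate 1 edgeR gave 6. Over the 17, the median log2 fold change was 0.35, against -0.0013 over all genes tested. The list median relative to Rcm was 0.41, 0.47 and 0.45 in the 3 libraries of R-Scm 24 h, and 0.41 to 0.48 in Scm. Replicate 1 did not stand apart in this median, but it did in some members. Over the 6 genes called without replicate 1, which were chosen on replicates 2 and 3, replicate 1 held 57.1% of the change in the median. The share ran from 25% to 151.8%. The list summed to 2240, 2690 and 2680 CPM in R-Scm 24 h, and to 1730 to 1930 CPM in Rcm. The Id proteins are helix-loop-helix factors without a DNA-binding region that keep other factors of the class off DNA. Id4 (chromosome 13, 48261228 to 48266026, GRCm38) stood at 9.85, 10.8 and 7.77 CPM in Rcm and at 16.8, 24.1 and 22.5 CPM in R-Scm 24 h. Its log2 fold change was 1.16 (SE 0.14, adjusted p = 0.00135), and replicate 1, the lowest of the 3, was still above the Rcm range. Id3 (chromosome 4, 136143497 to 136145755) had 174, 186 and 242 CPM in Rcm and 280, 337 and 459 CPM after 24 h in Scm (log2 fold change 0.84, SE 0.17, adjusted p = 0.0462). Id2 (chromosome 12, 25093799 to 25097140) had 49.7, 52.1 and 45.8 CPM in Rcm against 90.1, 80.1 and 67.0 CPM, with replicate 1 the highest (log2 fold change 0.69, SE 0.13, adjusted p = 0.0261). In Id2, Id3 and Id4 the groups did not overlap. Id1, the remaining member of the family, had 117, 132 and 170 CPM in Rcm against 167, 264 and 311 CPM after the exchange. Its replicate 1 fell below Rcm replicate 3, and it was a DEG without replicate 1 but not with the 3 libraries (log2 fold change 1.04, adjusted p = 0.00959). Ltbp2, which encodes an elastic fibre protein of the family named latent TGF-β binding proteins, rose from 45.4, 46.6 and 49.7 CPM to 97.4, 71.5 and 88.2 CPM. Reads of Ltbp2 could in part belong to D030025P21Rik, a gene on the other strand that shares 764 exon bases with it. Smad7, an inhibitor of SMAD signalling, had a log2 fold change of 0.97 (adjusted p = 0.103) with the 3 libraries and of 1.22 (adjusted p = 0.00446) without replicate 1.

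**Figure D2:**
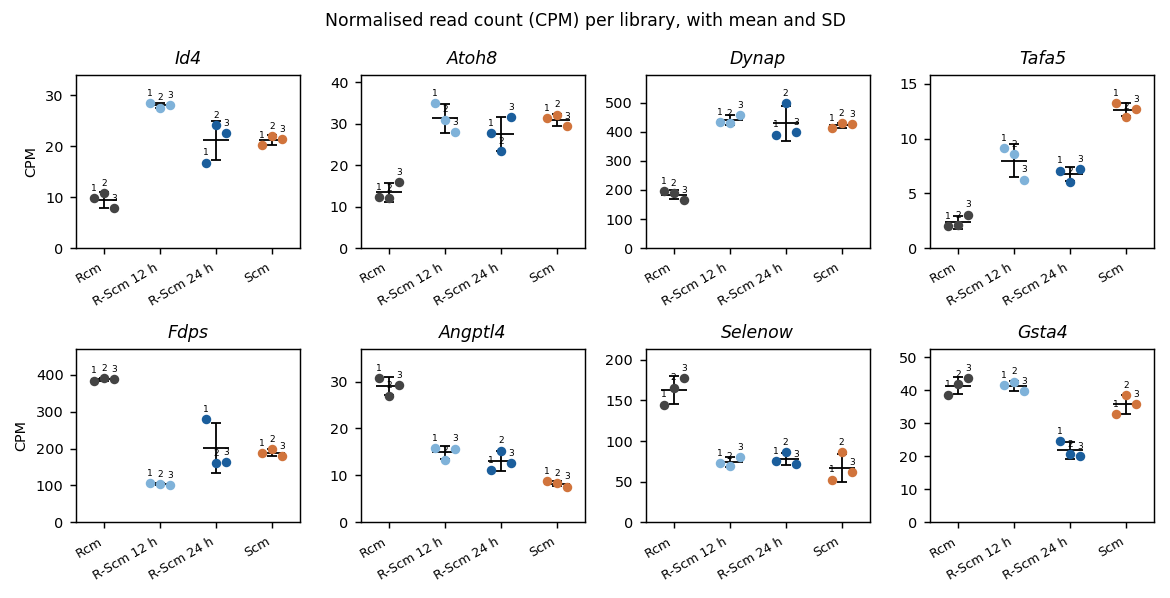
CPM of 8 DEGs in each library of Rcm, R-Scm 24 h, Scm and R-Scm 12 h. Points are single libraries with their replicate number, horizontal bars the mean and error bars the SD (n = 3 libraries). Id4, Atoh8, Dynap and Tafa5 are higher and Fdps, Angptl4, Selenow and Gsta4 lower in the 3 libraries of R-Scm 24 h than in any of Rcm, and Fdps replicate 1, at 280 CPM, is apart from the other two of its group (161 and 163 CPM).

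The transcription factors Atoh8, Dlx2 and Ddit3 were among the other higher DEGs. Atoh8, a basic helix-loop-helix factor (chromosome 6, 72206177 to 72235577), stood at 12.3, 12.0 and 16 CPM in Rcm and at 27.7, 23.4 and 31.6 CPM after 24 h in Scm (log2 fold change 1.04, SE 0.15, adjusted p = 0.00612). Dlx2, a homeobox factor, rose from 36.9, 43.2 and 53.3 CPM to 59.5, 71.7 and 94.7 CPM. Ddit3, the stress factor CHOP, rose by 0.61 in log2 terms (adjusted p = 0.0491), from 23.1, 24.6 and 31.4 CPM to 35.9, 37.6 and 47.0 CPM. Ddit3 was the member called among 21 tested of the ATF4 list, where 3 were called by DESeq2 and 3 by edgeR without replicate 1. The list stands for the response to amino acid shortage, and its median log2 fold change was 0.23. Klf11, a Krüppel-like factor, fell by 0.77 in log2 terms (adjusted p = 0.0491).

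Among the remaining higher DEGs, Dynap, a membrane protein that binds dynactin, had the smallest adjusted p of the comparison (2.17e-05). It stood at 195, 190 and 165 CPM in Rcm and at 391, 498 and 399 CPM in R-Scm 24 h (log2 fold change 1.23, SE 0.10), and the lowest library after the exchange lay above the highest before it. Tafa5, which encodes a secreted chemokine-like protein, rose from 2, 2.06 and 3.05 CPM to 7.07, 6.06 and 7.19 CPM (log2 fold change 1.5, SE 0.18, adjusted p = 0.00119). Cckar, the receptor of cholecystokinin, rose from 1.37, 1.73 and 1.52 CPM to 8.01, 3.85 and 4.94 CPM, with replicate 1 the highest (log2 fold change 1.86, SE 0.26, adjusted p = 0.00612). In Enpp2, which encodes autotaxin, the secreted enzyme that makes lysophosphatidic acid, replicate 1 was instead the lowest, at 9.25 CPM against 18.5 and 15.2 CPM, with 4.32 to 5.43 CPM in Rcm (log2 fold change 1.56, adjusted p = 0.00803). Npnt, a matrix ligand of integrins, and Sytl2, an effector of secretory vesicles, had log2 fold changes of 1.03 (adjusted p = 0.00803) and 0.99 (adjusted p = 0.0104). Tnc, the matrix glycoprotein tenascin-C, rose by 0.79 in log2 terms, and replicate 1, at 89.8 CPM, was nearer to the 72.1 to 78.6 CPM of Rcm than to the 143 and 155 CPM of replicates 2 and 3. Other higher DEGs included Edn1 (endothelin), Sdc3 (a syndecan), Slc6a4 (the serotonin carrier), Kcnf1 (a potassium channel subunit), S100a7a and Cdsn, with log2 fold changes of 0.64 to 2.01. Cdsn had the largest of them at a low level, 0.266 to 0.457 CPM in Rcm and 1.2 to 1.78 CPM in R-Scm 24 h. Tubb3 and Stmn2, a neuronal tubulin and a regulator of microtubules, rose by 0.96 (adjusted p = 0.0394) and 0.63 (adjusted p = 0.00803), and Rras2, Icmt, Tmcc3 and Fhl1 by 0.58 to 0.85. The 6 neural markers, of which Tubb3 is one, summed to 18.7 to 25.5 CPM in Rcm and to 28.7 to 34.1 CPM in R-Scm 24 h, and in such bulk libraries a change in the share of some cells and a change of RNA per cell cannot be told apart.

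Among the 21 genes of cholesterol synthesis, 5 (Tm7sf2, Nsdhl, Mvd, Fdps and Idi1) fell as DEGs by edgeR, and 16 were DEGs by DESeq2 on the same libraries. The estimated change was negative in all 21, with a median of -0.74. Without replicate 1, 20 of the 21 were DEGs and the median was -1.07. The list median relative to Rcm was -0.30 in replicate 1 and -1.09 and -1.14 in replicates 2 and 3. In the median over the 20 genes, replicate 1 held 30.4% of the change seen in replicates 2 and 3, on which these genes were chosen. The libraries of R-Scm 24 h lay below those of Rcm without overlap in 17 of the 21 genes, where 11.2% of all genes tested did not overlap in either direction.

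Within the pathway, Hmgcs1, which makes HMG-CoA at its start, showed this split. Hmgcs1 had 514, 533 and 434 CPM in Rcm and 402, 228 and 194 CPM in R-Scm 24 h (log2 fold change -0.84, adjusted p = 0.0926). It did not pass the test with the 3 libraries and did without replicate 1, with a log2 fold change of -1.22. The enzymes of the isoprenoid branch that follows passed with all libraries. Fdps, farnesyl diphosphate synthase (chromosome 3, 89093588 to 89101959), had 384, 392 and 389 CPM in Rcm and 280, 161 and 163 CPM in R-Scm 24 h (log2 fold change -0.95, SE 0.15, adjusted p = 0.00803). Idi1, isopentenyl diphosphate isomerase, fell from 249, 271 and 210 CPM to 176, 114 and 96.4 CPM, and Mvd, mevalonate diphosphate decarboxylase, from 52.4, 54.2 and 67.9 CPM to 40.1, 19.3 and 28.5 CPM. Among the later sterol steps, Nsdhl, a sterol dehydrogenase (chromosome X, 72918557 to 72958514), fell from 118, 123 and 119 CPM to 79.7, 52.5 and 47.0 CPM (log2 fold change -1, SE 0.15, adjusted p = 0.00613). Tm7sf2, a sterol reductase, fell from 18.8, 18.4 and 20.9 CPM to 11, 5.68 and 6.37 CPM (log2 fold change -1.33), and 532 of its exon bases overlap Vps51 on the same strand. In each of these 5 genes replicate 1 lay between Rcm and the other two libraries.

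Some of these genes have near-identical copies or overlapping exons, and how such reads were counted is not known. The pseudogenes Gm3571 and Gm5873, with log2 fold changes of -0.99 and -0.98, are 98.9% and 96.7% identical to Fdps over 1062 and 1066 bases, and Gm43738 overlaps 1124 exon bases of Fdps, so that Fdps and the 2 pseudogenes may not be separate DEGs. Acat3, another lower DEG, is 97.7% identical to Acat2 of the pathway over 1477 bases and overlaps Tcp1 on the other strand. Idi1 matches the pseudogene Gm13502 in full over 684 bases.

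The promoter of Hmgcs1 is shown because it was the only one, of the 16 genes of the list with an entry in the RefSeq promoter table, that held a match to the sterol response element TCACNCCAC on either strand. It spans chr13:119690101-119690400 on the plus strand of GRCm38.p6, 250 bases before to 50 after the start, and the match, in capitals, starts at -137. Of 32851 promoter windows, 1.24% held a match.
Hmgcs1: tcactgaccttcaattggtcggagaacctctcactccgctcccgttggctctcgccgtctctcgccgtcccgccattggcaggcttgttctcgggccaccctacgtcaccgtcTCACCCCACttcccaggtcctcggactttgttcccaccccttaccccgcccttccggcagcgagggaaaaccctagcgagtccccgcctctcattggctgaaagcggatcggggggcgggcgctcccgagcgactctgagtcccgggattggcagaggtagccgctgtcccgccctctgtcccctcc
The window does not reach elements farther from the start site.

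Uptake and control genes of the SREBP pathway were examined next. By edgeR, 0 of the 15 members were DEGs with the 3 libraries, with 7 at an unadjusted p under 0.05 and 2 DEGs by DESeq2, and the median log2 fold change was -0.25. Without replicate 1, 5 were lower DEGs, among them Insig1, Stard4, Lpin1 and Lipa. Insig1, which holds SREBP in the endoplasmic reticulum and is itself a target, had 171, 174 and 181 CPM in Rcm and 138, 67.9 and 82.8 CPM in R-Scm 24 h (log2 fold change -0.87, adjusted p = 0.0504). Srebf1 and Srebf2, which encode the SREBP factors, had log2 fold changes of 0.00 (adjusted p = 0.998) and -0.19 (adjusted p = 0.699). Srebf1, at 88.8, 78.6 and 80.1 CPM after the exchange, lay within the 75.0 to 95.6 CPM of Rcm. Of the 10 genes tested of sterol export and LXR targets, 0 were DEGs by edgeR or DESeq2 with the 3 libraries, with 3 at an unadjusted p under 0.05 by edgeR and a median of 0.03.

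In fatty acid synthesis, 0 of 23 genes tested were DEGs with the 3 libraries by edgeR, with 7 at an unadjusted p under 0.05 and 2 DEGs by DESeq2, and the median log2 fold change was -0.19. Without replicate 1, Acly, Acss2, Elovl6, Scd1, Fads1, Fads2 and Acsl3 were lower. Acly, the citrate lyase that supplies acetyl-CoA, had an adjusted p of 0.00803 with the 3 libraries, but its log2 fold change of -0.56 was short of the threshold. Scd1, the desaturase that makes monounsaturated fatty acids, showed the split in full. It had 439, 444 and 409 CPM in Rcm and 435 CPM in replicate 1 of R-Scm 24 h, against 237 and 215 CPM in replicates 2 and 3. Its log2 fold change was -0.54 (adjusted p = 0.257), and -0.93 (adjusted p = 0.000121) without replicate 1. Fasn, fatty acid synthase, had 784, 772 and 811 CPM against 721, 601 and 748 CPM (log2 fold change -0.19, adjusted p = 0.605). Scd2, a second desaturase, had 1760, 152 and 674 CPM in R-Scm 24 h and 1440 to 1550 CPM in Rcm, a spread that left a log2 fold change of -0.79 with an SE of 0.69.

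Of 23 genes tested of PPAR targets and fatty acid oxidation, Cpt1a and Angptl4 fell and none rose (median -0.19). Cpt1a, the carnitine palmitoyltransferase that admits fatty acids to mitochondria, fell from 137, 134 and 137 CPM to 96.8, 56.1 and 60.9 CPM (log2 fold change -0.93, SE 0.14, adjusted p = 0.00803). Angptl4, a secreted inhibitor of lipoprotein lipase, fell from 30.8, 27.0 and 29.2 CPM to 11.2, 15.3 and 12.7 CPM, with replicate 1 the lowest (log2 fold change -1.15, SE 0.18, adjusted p = 0.00803). Pcx, pyruvate carboxylase, and Pcyt2, which makes CDP-ethanolamine for phosphatidylethanolamine, fell too, with log2 fold changes of -0.64 and -0.59. Pitpnc1, a phosphatidylinositol transfer protein, had one of -0.70 and Aox1, aldehyde oxidase, one of -1.35.

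Selenow and Gsta4, of families that act in redox defence, were lower. Selenow, a small selenoprotein (chromosome 7, 15917208 to 15922402), fell from 145, 166 and 178 CPM to 75.8, 86.7 and 72.0 CPM (log2 fold change -1.06, SE 0.17, adjusted p = 0.00803), and replicate 1 lay between the other libraries of its group. It was the DEG among 19 selenoproteins tested, whose median log2 fold change was -0.09. DESeq2 called 2 of them, and without replicate 1 Selenoh, Selenop and Dio2 were lower too. Gsta4, a glutathione transferase that acts on aldehydes of lipid peroxidation (chromosome 9, 78182774 to 78209349), fell from 38.7, 41.8 and 43.8 CPM to 24.7, 20.6 and 20.1 CPM (log2 fold change -0.93, SE 0.11, adjusted p = 0.00086). Of 25 regulators of ferroptosis, 0 were DEGs by edgeR with the 3 libraries, 8 had an unadjusted p under 0.05 and 1 was a DEG by DESeq2, with a median log2 fold change of -0.06. Gpx4 stood at 128, 129 and 125 CPM in Rcm and at 126, 125 and 119 CPM in R-Scm 24 h (log2 fold change -0.04, SE 0.08, adjusted p = 0.913). Slc7a11 varied by library, with 50.9, 53.8 and 17.5 CPM in Rcm and 61.9, 40.5 and 45.9 CPM in R-Scm 24 h (log2 fold change 0.28, SE 0.39, adjusted p = 0.872). Aifm2, which encodes FSP1, and Acsl4, which loads polyunsaturated fatty acids into phospholipids, had log2 fold changes of -0.26 (adjusted p = 0.432) and -0.13 (adjusted p = 0.802). Without replicate 1, Chac1, which degrades glutathione, was higher (0.96, adjusted p = 0.0145) and Slc40a1, the iron exporter, lower (-1.89, adjusted p = 0.0209). Apoh, the gene of the serum protein APOH, had 6, 3 and 2 counts in Rcm and 2, 5 and 4 in R-Scm 24 h and was not tested.

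Of the remaining lower DEGs, Mylk, myosin light chain kinase, fell from 9.73, 11.7 and 7.42 CPM to 4.36, 3.47 and 2.24 CPM (log2 fold change -1.52, SE 0.23, adjusted p = 0.00803), and 548 of its exon bases overlap E130310I04Rik on the other strand. The formins Fhod3 and Fmnl1 and the GTPase-activating protein Arhgap18 had log2 fold changes of -1.12, -0.71 and -0.785. Mylk and Fhl1 were the DEGs among 23 tested genes of contraction and of the SRF and YAP factors, one in each direction, while 21 of the 23 estimates were positive (median 0.36). Without replicate 1, 5 of the 23 were higher and 1 was lower, and DESeq2 called 3 with the 3 libraries. Tenm4, a teneurin of the cell surface (chromosome 7, 96171246 to 96911093), fell from 32.6, 29.2 and 30.8 CPM to 11.7, 14.6 and 15.2 CPM (log2 fold change -1.16, SE 0.18, adjusted p = 0.00803), and Pcdh17, a protocadherin, had a log2 fold change of -1.47. Of 19 Wnt genes tested, Wnt9a, a ligand, and Apcdd1, an inhibitor at the cell surface, had log2 fold changes of -0.94 (adjusted p = 0.0394) and -0.64 (adjusted p = 0.00921), and the list median was -0.01. Slc22a23, an orphan carrier, Msln (mesothelin) and Lrch2 had log2 fold changes of -0.77, -0.83 and -0.86. The largest falls among the 58 DEGs, of -2.29 and -2.14, were in Islr and Lmcd1, at 1.62 to 3.30 CPM in Rcm and 0.153 to 1.35 CPM in R-Scm 24 h.

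Leaving out R-Scm 24 h replicate 1 changed the number of DEGs from 58 to 501. These were 167 higher genes, 1.06% of the 15704 then tested, and 334 lower genes, 2.13%, and 57 of the 58 were among them. In the 167 higher genes the median level of replicate 1 was 0.14 above the Rcm mean in log2 CPM, against 0.87 and 0.90 in replicates 2 and 3. In 331 of the lower genes, those also tested with the 18 libraries, it was -0.08, against -1.06 and -1.01. Replicate 1 lay nearer to the Rcm mean than to replicates 2 and 3 in 122 of 167 and 285 of 331 genes. These medians describe genes that were chosen on replicates 2 and 3. Leaving out replicate 2 or 3 gave 19 and 14 DEGs.

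**Figure D3:**
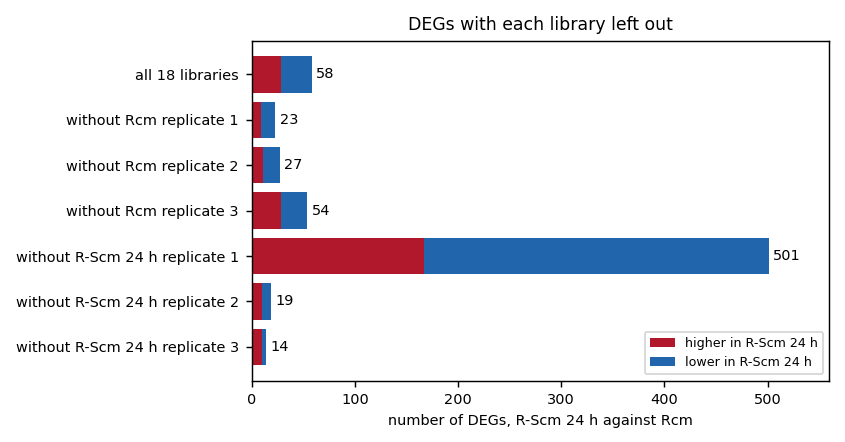
Number of DEGs between R-Scm 24 h and Rcm with all 18 libraries and with each of the 6 compared libraries left out, split into genes higher and lower in R-Scm 24 h. The bar without R-Scm 24 h replicate 1 reaches 501, and the other 5 bars with a library left out lie between 14 and 54.

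Interferon-stimulated genes divided the libraries of R-Scm 24 h. By edgeR, 0 of the 40 were DEGs with the 3 libraries, with 15 at an unadjusted p under 0.05, 2 DEGs by DESeq2 and a median log2 fold change of -0.62, and 28 were lower without replicate 1 (median -1.30). The list median relative to Rcm was 0.10 in replicate 1 and -1.25 and -1.26 in replicates 2 and 3. Over the 28 genes, which were chosen on replicates 2 and 3, replicate 1 held -9% of the change of the other libraries in the median, a negative share meaning that it lay on the other side of Rcm. Isg15, a ubiquitin-like protein attached to others during the interferon response, had 31.5, 36.0 and 49.4 CPM in Rcm and 38.3, 15.1 and 17.2 CPM in R-Scm 24 h. Ifit1, which binds foreign RNA, had 74.4, 82.0 and 43.1 CPM against 61.6, 22.5 and 18.3 CPM. Oasl2, of the family of RNA sensors, had 52.0, 55.2 and 42.4 CPM against 60.6, 13.8 and 11.5 CPM. In each of the 3 genes replicate 1 fell within or above the Rcm range and the other libraries fell below it. Stat2 and Irf7, factors of the pathway, followed, with Stat2 at 80.6, 25.2 and 31.2 CPM (73.2 to 77.2 CPM in Rcm) and Irf7 at 12.8, 4.80 and 4.08 CPM (9.98 to 12.8 CPM in Rcm). Without replicate 1 their log2 fold changes were -1.42 (adjusted p = 2.29e-05) and -1.32 (adjusted p = 0.000427). Cxcl10, a chemokine of the same list, had 18.3, 14.7 and 14 CPM against 22.8 to 25.8 CPM in Rcm (log2 fold change -0.61, adjusted p = 0.145). It was 1 of 5 members, of 40, whose groups did not overlap, a share close to the 11.2% of all genes tested.

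The promoters of Isg15 and Ifit1 are shown because both genes were below the Rcm range in replicates 2 and 3 of R-Scm 24 h. The interferon-stimulated response element, searched as GAAANNGAAA on both strands, was found in 17 of the 29 list genes with a RefSeq promoter entry (58.6%), against 3.99% of 27025 genes. The list was made of known interferon-stimulated genes, so that a high share comes with that choice and is no result of these libraries. The window of Isg15 is chr4:156200769-156201068 (minus strand, GRCm38.p6), with 3 overlapping matches that start at -78, -72 and -66, in capitals. That of Ifit1 is chr19:34640639-34640938 (plus strand), with 2 matches on the opposite strand that start at -104 and -85. A match describes letters only and shows no binding.
Isg15: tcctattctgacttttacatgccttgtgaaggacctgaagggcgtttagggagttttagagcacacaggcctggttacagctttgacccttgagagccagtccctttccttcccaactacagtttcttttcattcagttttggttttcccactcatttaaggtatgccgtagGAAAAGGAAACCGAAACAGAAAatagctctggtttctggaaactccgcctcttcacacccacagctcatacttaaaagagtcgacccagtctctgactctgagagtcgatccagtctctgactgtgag
Ifit1: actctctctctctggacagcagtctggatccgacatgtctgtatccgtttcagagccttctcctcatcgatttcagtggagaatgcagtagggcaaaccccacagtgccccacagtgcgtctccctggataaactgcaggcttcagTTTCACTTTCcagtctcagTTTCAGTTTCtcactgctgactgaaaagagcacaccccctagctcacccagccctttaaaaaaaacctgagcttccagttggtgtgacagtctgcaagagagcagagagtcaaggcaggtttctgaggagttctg
Both are written 5′ to 3′ on the strand of the gene.

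**Figure D4:**
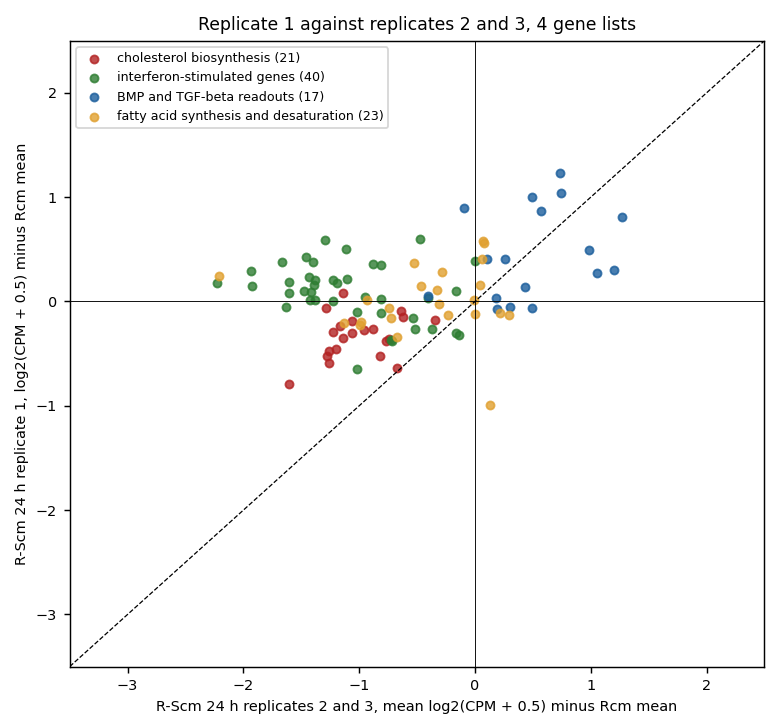
R-Scm 24 h replicate 1 against the mean of replicates 2 and 3 for the genes tested of 4 lists, each as log2(CPM + 0.5) minus its mean in Rcm, with the dashed line marking equality. The 40 interferon-stimulated genes and the 21 genes of cholesterol synthesis lie mostly to the left of the vertical axis and above the dashed line, and the 17 genes of the BMP and TGF-β list lie around the line on the right.

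Of 23 collagen and matrix genes tested, Tnc rose (3 were DEGs by DESeq2), and Col3a1, Col6a2 and Loxl2 were lower without replicate 1 but were no DEGs with the 3 libraries (list median -0.06, and -0.32 without replicate 1). Col3a1, a fibrillar collagen, had 821, 844 and 809 CPM in Rcm and 714, 200 and 223 CPM in R-Scm 24 h. Of 19 immediate early genes tested, 0 were DEGs by edgeR or DESeq2 with the 3 libraries, with 6 at an unadjusted p under 0.05 by edgeR and a median of 0.32. Fosb, Fosl1, Junb and Nr4a1 were higher without replicate 1, which lay below the Rcm mean in the median (-0.22, against 0.44 and 0.52 in the other libraries). Fosl1, a partner of JUN in AP-1, had 83.1, 78.3 and 98.4 CPM in Rcm and 60.4, 170 and 175 CPM in R-Scm 24 h. The 15 largest falls without replicate 1 were in Islr, Dpt, Bmp3, Spon2, Ifi27l2a, Dio2, Aspn, Oas2, Gm48342, Hmcn1, Trim30a, Apod, Hvcn1, Lrrc17 and Col11a1. Reads of Gm48342 could in part belong to Hmgcs1, which shares 557 exon bases with it on the other strand. Those of Hvcn1 could in part belong to Tctn1, which shares 1574 with it on the other strand. Bmp3, a secreted factor of the BMP family, had 15.3, 13.8 and 8.58 CPM in Rcm and 11.9, 1.14 and 1.33 CPM in R-Scm 24 h, and Aspn, the proteoglycan asporin, 48.6, 56.7 and 25.7 CPM against 48.6, 8.21 and 4.89 CPM. Among the 15 largest rises, Rgs16, a regulator of G-protein signalling, had 17.4, 18 and 19.3 CPM in Rcm against 11.8, 65.7 and 69.1 CPM, and Wnt7a, a Wnt ligand, 8.67, 9.05 and 10.9 CPM against 10.7, 30.2 and 31.2 CPM. Arrb1, a β-arrestin, differed from these in that replicate 1 rose with the others (28.1, 30.3 and 32 CPM against 7.21 to 10.8 CPM in Rcm), and its adjusted p was 0.0667 with the 3 libraries. Arrb1 varied widely within other groups, with 18.8, 25.8 and 9.32 CPM in R-Scm 12 h and 17.8, 9.64 and 34.6 CPM in Scm. Of these rises, 4 (Tafa5, Cckar, Kcnf1 and Enpp2) were also DEGs with the 3 libraries, as was 1 of the falls (Islr). Genes of the cell cycle did not divide the libraries. Of 24, 0 were DEGs by edgeR with the 3 libraries or without replicate 1, with 1 and 2 at an unadjusted p under 0.05, and 0 by DESeq2, and the median log2 fold change was -0.001.

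**Figure D5:**
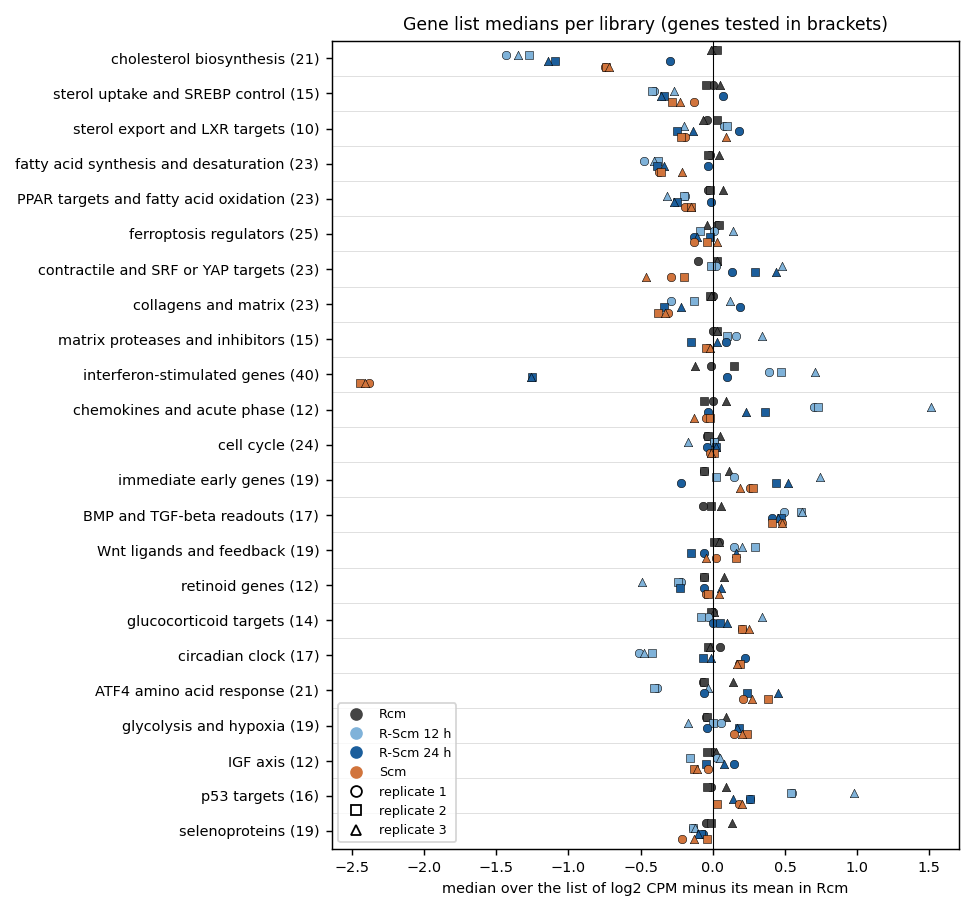
Median over each of 23 gene lists of log2 CPM minus its mean in Rcm, per library, with the number of genes tested in brackets. Colours are groups and shapes replicates. R-Scm 24 h replicate 1 lies apart from replicates 2 and 3 in the lists of cholesterol synthesis (-0.30 against -1.09 and -1.14), interferon-stimulated genes and immediate early genes, and with them in the BMP and TGF-β list.

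Against R-Scm 12 h, which asks whether the response at 24 h still equalled that at 12 h, 119 DEGs were observed, 0.774% of the genes tested, with 51 higher and 68 lower at 24 h. Of the 21 cholesterol genes, 7 rose from 12 h to 24 h and none fell (median 0.66), and 3 rose without replicate 1 (median 0.355). Fdps had 106, 103 and 101 CPM at 12 h, below the 161 to 280 CPM at 24 h, a rise of 0.96 on the log2 scale (adjusted p = 0.00659), and Nsdhl had 31.7, 33.2 and 30.6 CPM at 12 h, below 47.0 to 79.7 CPM (0.91, adjusted p = 0.00752). Insig1 rose from 46.1, 50.1 and 43.2 CPM to 138, 67.9 and 82.8 CPM (log2 fold change 1.05, adjusted p = 0.013). Of the 40 interferon-stimulated genes, 12 were lower at 24 h (median -1.23) and 35 without replicate 1 (median -1.94). DESeq2 called 12 of the cholesterol genes and 21 of the interferon-stimulated genes between 24 h and 12 h, and 230 of all 15381 genes. Cxcl10 fell from 55.7, 62.5 and 68.9 CPM at 12 h, at a log2 fold change of -1.995 (adjusted p = 4.54e-05). For the BMP and TGF-β list the median was -0.17, with 0 DEGs of 17 by edgeR or DESeq2 and 3 genes at an unadjusted p under 0.05 by edgeR. Over all genes tested, 2092 of 15381 had such a p in this comparison. Id4 had 28.4, 27.6 and 28.0 CPM at 12 h, above the 16.8 to 24.1 CPM at 24 h, and a log2 fold change of -0.405 (adjusted p = 0.191). Gsta4 had 41.6, 42.6 and 39.8 CPM at 12 h, within the 38.7 to 43.8 CPM of Rcm, and fell from 12 h to 24 h at a log2 fold change of -0.92 (adjusted p = 0.000598). Of the 58 DEGs against Rcm, 8 differed between 24 h and 12 h, and of these Idi1, Gm3571 and Edn1 did not pass without replicate 1.

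Against Scm, the medium to which the cells had been moved, 91 DEGs were observed, 0.592% of the genes tested, with 78 higher and 13 lower in R-Scm 24 h. Interferon-stimulated genes accounted for 23 of the 78, with a median of 1.90 over the 40, and 15 were higher without replicate 1 (median 1.34). Isg15 had 6.47, 5.68 and 7.01 CPM in Scm, below each library of R-Scm 24 h (log2 fold change 1.88, adjusted p = 0.0112, and 1.34, adjusted p = 0.0103 without replicate 1). Replicates 2 and 3 thus lay between Rcm and Scm in this list, at -1.25 and -1.26 relative to Rcm where the Scm libraries lay at -2.44 to -2.38. Of the 21 cholesterol genes, 0 were DEGs against Scm by edgeR or DESeq2, 0 had an unadjusted p under 0.05 by edgeR, and the median was 0.015, or -0.285 without replicate 1. Of the 23 contractile genes and targets of SRF and YAP, 6 were higher than in Scm (Tagln, Cnn1, Fhl1, Ccn1, Ccn2 and Thbs1), with a median of 0.55. Ccn1, a matricellular protein, had 389, 398 and 409 CPM in Scm, below the 537 to 906 CPM of R-Scm 24 h (log2 fold change 0.93, adjusted p = 0.0211). Of the 58 DEGs against Rcm, 5 were DEGs against Scm. Edn1 and Fhl1 were higher than in Scm by 1.18 (adjusted p = 0.0047) and 1.67 (adjusted p = 0.000489), Tafa5 and Slc6a4, though above Rcm, were below Scm, at -0.90 (adjusted p = 0.0204) and -1.16 (adjusted p = 0.00192), as was Gsta4 at -0.715 (adjusted p = 0.00443). Fhl1 had 98.7, 89.0 and 75.9 CPM in R-Scm 24 h against 23.4, 28.5 and 31.3 CPM in Scm and 46.1 to 51.8 CPM in Rcm, so that Rcm lay between them. Gsta4, at 20.1 to 24.7 CPM in R-Scm 24 h, was below both Rcm and Scm (32.8 to 38.5 CPM). For the other 53 DEGs a difference from Scm was not detected at this spread, which does not show that the levels were equal.

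The genes with the largest difference between replicate 1 and the mean of replicates 2 and 3 were of another kind. Among genes with at least 5 CPM, Usp50, Rnf26, Pcdhgc3, Gm28036 and Ptp4a1 were lowest in replicate 1, with differences of -6.04 to -3.57 in log2 CPM, and Gm45717, H1f10, Pcdhb17, Gm20634 and Exosc6 were highest, with differences of 3.38 to 8.26. In 8 of the 10, exons overlap those of another tested gene on the same strand, against 5.12% of all genes tested and 2 of the 58 DEGs. Exosc6, which shares 1326 exon bases with Aars, had 45.7, 4.29 and 4.28 CPM in R-Scm 24 h and 43.3, 40.6 and 3.81 CPM in Rcm. H1f10 had 0 CPM in replicate 2 and 72.3 and 66.1 CPM in replicates 1 and 3. Pcdhb17 had 12.1, 6.5 and 0 CPM and Gm20634 had 12, 7.7 and 0 CPM. In H1f10, Pcdhb17 and Gm20634 a value of 0 in replicate 2 or 3 thus made much of the difference. Exosc6 jumped within Scm too (75.3, 87.2 and 0.618 CPM), and none of the 10 was a DEG with or without replicate 1.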

How the data were processed

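RNA-seq was carried out on 18 libraries of WT MEFs, 3 in each of 6 groups, and the deposited table holds the authors' counts of reads per gene, not normalized. Per the labels and the study's methods, RNA was extracted with an RNeasy kit, libraries were made with an ABclonal kit and sequenced paired-end on a NovaSeq instrument, and reads were aligned with HISAT2 2.0.5 to GRCm38. The counting tool, the use of strand and the treatment of reads with several matches are not given in the sources used here. Library columns were matched to samples by their description, since the numbers in the column names (1, 3 and 4 for R-Scm 24 h) differ from those in the titles (1, 2 and 3), which are used in the text. There were 0 sample columns without a match.

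From the deposited counts, edgeR 4.0.16 (R 4.3.3) was run on the 18 libraries with group as the factor, filterByExpr, TMM scaling and the robust quasi-likelihood test. Of 55487 genes, 15381 were tested. Log2 CPM values of single libraries used a prior count of 2, and log2 fold changes were taken from the edgeR fit at its default setting. DEGs exceeded 0.58 on the log2 scale in either direction, with p adjusted by Benjamini-Hochberg over the genes tested and below 0.05. An exact permutation test of 3 against 3 libraries cannot give a p below 0.1 and was not used. Totals were 14534906 to 20313715 counts over the 18 libraries, the common dispersion was 0.0298 and the biological coefficient of variation 0.173. The script was tested on simulated counts. No simulated library deviated from its group, so that this test does not bear on calls that depend on R-Scm 24 h replicate 1. Alternatives were RLE scaling, other filters on low counts, DESeq2 1.42.0, fits on the compared groups alone, a replicate block, adjusted p alone and the omission of each library.

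Named genes were the DEGs, the 15 largest rises and falls without R-Scm 24 h replicate 1 (mean of at least 1 CPM), the 5 genes highest and the 5 lowest in that library (at least 5 CPM), members of 23 pathway lists and a fixed set of lipid and ferroptosis genes. A few of these are not reported here. These genes and lists were chosen with earlier results of these data known, so that they are no independent support for what those results showed. Exon overlaps and copies were found with the reference annotation of GRCm38 and blastn 2.17.0, and promoter sequences came from RefSeq (GRCm38.p6).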

Additional observations from a re-analysis of the deposited data

Results flagged for a closer look

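For 8 of the 58 DEGs between R-Scm 24 h and Rcm, the level at 24 h also differed from that at 12 h after the same exchange, which tests the difference between both time points directly (edgeR's quasi-likelihood test with Benjamini-Hochberg adjustment, log2 fold change of R-Scm 24 h against R-Scm 12 h, n = 3 libraries a group). The genes of cholesterol synthesis and the pseudogenes close to Fdps were higher at 24 h, nearer to Rcm. Fdps had a value of 0.961 (adjusted p = 0.00659), Nsdhl one of 0.908 (adjusted p = 0.00752) and Idi1 one of 0.75 (adjusted p = 0.0458). Gm5873 had a value of 1.202 (adjusted p = 0.00975) and Gm3571 one of 0.835 (adjusted p = 0.0278). Pcyt2, of phosphatidylethanolamine synthesis, had a value of 0.648 (adjusted p = 0.00982). Edn1, which encodes endothelin, was lower at 24 h at -0.795 (adjusted p = 0.0287), having stood at 41.3, 44.2 and 72.5 CPM at 12 h and at 24.6, 32.4 and 34.0 CPM at 24 h. Gsta4 was lower at 24 h at -0.924 (adjusted p = 0.000598), and unlike the other 7 genes it had not left the range of Rcm at 12 h. Without R-Scm 24 h replicate 1, 3 of the 8 did not pass, with adjusted p values of 0.0878 for Idi1, 0.06 for Gm3571 and 0.0574 for Edn1.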

How the results depend on the processing

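With each library left out in turn, R-Scm 24 h against Rcm gave 14 to 501 DEGs, against R-Scm 12 h 57 to 309 and against Scm 17 to 92, the highest of the first 2 ranges being without R-Scm 24 h replicate 1. DESeq2 on 18 libraries gave 161, 230 and 187 DEGs in these comparisons, DESeq2 on the 2 groups 89 against Rcm and 170 against Scm, and edgeR on the 2 groups 4, 2 and 35, of which 1, 1 and 20 were among the DEGs of the 18 libraries. A minimum of 10 counts in every library gave 46 DEGs against Scm in place of 91. With the replicate block, the counts were 68 against Rcm, 119 against R-Scm 12 h and 59 against Scm. The deviations of same-numbered Rcm and R-Scm 24 h libraries from their group means correlated at 0.085, 0.159 and 0.346. Each R-Scm 24 h library correlated best with its own number, a hint from the data and not from the design. The numbers are those of the titles, which differ from the column names for R-Scm 24 h. The labels name no pairs, and these values cannot settle whether libraries were paired. The split into higher and lower DEGs against Rcm was 31 and 25 with RLE scaling and 28 and 30 with TMM. For single DEGs, 547 of 809 values under alternatives kept their call, 262 kept the direction only and 0 reversed. For the other named genes, 471 of 520 kept their side of the threshold, 43 passed it and 6 reversed. The reversed values, none past the test, were those of Lrrc17 (0.021) and Gpx4 (0.003) without R-Scm 24 h replicate 3, of Slc7a11 (-0.072) without Rcm replicate 3, and of Srebf1 without Rcm replicate 1 (-0.061), Rcm replicate 2 (-0.049) or R-Scm 24 h replicate 1 (-0.053). With each library left out in turn, the log2 fold change ranged from -2.207 to 0.021 for Lrrc17, -0.061 to 0.133 for Srebf1, -0.058 to 0.003 for Gpx4 and -0.072 to 0.536 for Slc7a11, and Lrrc17 passed the test without R-Scm 24 h replicate 1. The causes were not tested.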

Other observations

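Of 17 genes of the circadian clock tested, 5 rose between 12 h and 24 h after the exchange (Per1, Per2, Cry2, Tef and Ciart) and none fell, with a median log2 fold change of 0.52, or 6 and 0.34 without R-Scm 24 h replicate 1. Against Rcm, 0 of the 17 were DEGs by edgeR or DESeq2, with 3 at an unadjusted p under 0.05 by edgeR. Tef, a clock output factor, had 81.7, 78.3 and 84.9 CPM in Rcm, 33.6, 37.4 and 14.2 CPM at 12 h and 120, 68.6 and 76.0 CPM at 24 h (log2 fold change against 12 h 1.63, adjusted p = 0.00928). Per2, a repressor of the clock, had 11.8 to 16 CPM in Rcm, 3.68 to 7.72 CPM at 12 h and 12.7 to 22.4 CPM at 24 h (1.46, adjusted p = 0.00928). Of 21 genes tested of the ATF4 list, Atf5, Trib3, Chac1, Mthfd2 and Slc7a5 rose from 12 h to 24 h, and without replicate 1 the number was 9. Trib3, a pseudokinase of that response, had 7.66, 6.74 and 16.6 CPM at 12 h and 18, 25.8 and 27.1 CPM at 24 h (1.2, adjusted p = 0.033).

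Of 15 matrix proteases and inhibitors, Mmp3 and Mmp13 fell from 12 h to 24 h, and without replicate 1 the number was 4. Mmp3, stromelysin, had 153 to 178 CPM in Rcm, 864, 874 and 1490 CPM at 12 h and 117, 318 and 275 CPM at 24 h (log2 fold change against 12 h -2.185, adjusted p = 0.00768). Against Rcm, 0 of the 15 were DEGs by edgeR or DESeq2 at 24 h, with 5 at an unadjusted p under 0.05 by edgeR. Without replicate 1, Mmp10, Timp1 and Plau were higher and Adamts1, Adamts4 and Plat lower. Of 12 chemokine and acute phase genes tested, Ccl2, Ccl7 and Cxcl1 fell from 12 h to 24 h, and 0 were DEGs against Rcm by edgeR or DESeq2, with 6 at an unadjusted p under 0.05 by edgeR. Ccl7, which attracts monocytes, had 97.1, 109 and 163 CPM at 12 h and 49.4, 71.0 and 58.4 CPM at 24 h (-1.05, adjusted p = 0.00653), with 49.2 to 55.0 CPM in Rcm. Of 16 p53 targets, Ccng1 and Eda2r fell from 12 h to 24 h (4 genes without replicate 1), and 0 were DEGs against Rcm by edgeR or DESeq2, with 2 at an unadjusted p under 0.05. Of 14 glucocorticoid targets, Angptl4 was the DEG against Rcm. The lists of retinoid genes, glycolysis and hypoxia, and the IGF axis held 0 DEGs against Rcm by edgeR, with 4 of 12, 3 of 19 and 4 of 12 genes at an unadjusted p under 0.05. By DESeq2 they held 2, 0 and 0, and without replicate 1 Cyp26b1 and Hk2 were higher and Dhrs3 and Igfbp5 lower by edgeR. Over all genes tested, 1582 of 15381 had an unadjusted p under 0.05 against Rcm by edgeR. Small counts of list members at that threshold are therefore no result about a list.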
